A study of Mus musculus with 8 samples.

Results

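The genes of the BAFF and APRIL system, 2 ligand genes and 3 receptor genes, were examined in total splenocytes of mice given all-trans retinoic acid (tRA) and of control mice. Earlier results of these data were known when the members were chosen. The members were chosen by name, as the known ligands and receptors of this system, and not by their measured values. They are 5 of the 51826 genes in the count table, and all 5 had enough reads to be among the 16484 genes tested. Spleens came from 8 Balb/c mice, 4 in each group, at 3 months of age. The tRA mice were given tRA, a metabolite of vitamin A that acts on nuclear receptors, by mouth every day from weaning until harvest. According to a figure caption of the study the control mice received the vehicle, which its methods give as canola oil. The methods also describe the animals as female. The sample labels, by contrast, give a dose of 1 mg/kg of tRA for all 8 mice, controls included. No mouse received pristane, the oil with which the study induced lupus in other animals. Red blood cells were lysed before RNA was extracted, and no cell type was sorted, so each value is an average over all spleen cells of 1 mouse. The comparison asks how tRA alone, before any induction of lupus, relates to gene expression in the spleen.

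BAFF and APRIL are cytokines of the TNF superfamily that keep B cells and plasma cells alive. BAFF binds the receptors BAFF-R, TACI and BCMA, while APRIL binds TACI and BCMA, and BAFF-R is the one on which the survival of mature B cells in the spleen depends, through the alternative NF-kB pathway. Myeloid cells and stromal cells are known sources of the ligands, and mice with an excess of BAFF develop a disease that resembles lupus.

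Total counts on genes per mouse were 37539631, 31833853, 35924683 and 30919272 in control replicates 1 to 4 and 33755595, 31810417, 35165876 and 32042754 in tRA replicates 1 to 4. The libraries held the genes that spleen cells should express. The B cell genes summed to 9162 ± 638 CPM (counts scaled to a common library size by the TMM method; SD, n = 4) in control mice and 9300 ± 151 (SD, n = 4) in tRA mice, while genes of kidney epithelium, which should be absent, summed to 0.223 ± 0.0613 and 0.22 ± 0.0903 CPM (SD, n = 4), and Umod, the kidney gene of uromodulin, had 0 counts in all 8 libraries. No pair of mice of one group was alike within sampling noise, as the chi-square of their counts, divided by its degrees of freedom, lay between 12.9 and 65.4.

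Per length of exon, the receptors of B cells were far more abundant than the other members in every mouse. Tnfrsf13c, the gene of BAFF-R, stood highest at 86.6 ± 11.4 CPM per kb of exon in control mice and 75.6 ± 4.21 in tRA mice (SD, n = 4). Tnfrsf13b, the gene of TACI, followed at 53.5 ± 4.23 and 50.7 ± 2.51 CPM per kb (SD, n = 4). Its highest mouse, at 57.9 CPM per kb, was below the lowest mouse for Tnfrsf13c, at 71. Tnfrsf17, which encodes BCMA, the receptor of plasma cells, had 2.29 ± 0.751 and 1.33 ± 0.196 CPM per kb (SD, n = 4). For Tnfsf13, the gene of APRIL, the level was 1.05 ± 0.371 and 0.968 ± 0.258 CPM per kb (SD, n = 4), and for Tnfsf13b, the gene of BAFF, it was 0.382 ± 0.0439 and 0.325 ± 0.0525 (SD, n = 4). In this order only Tnfrsf17 and Tnfsf13 overlapped as neighbours, since the Tnfrsf17 levels began at 1.16 CPM per kb and the Tnfsf13 levels reached 1.43. The length used matters for the ligands. With the longest transcript in place of all exons, the lowest mouse for Tnfsf13 had 0.594 CPM per kb and the highest for Tnfsf13b had 0.612, so that these neighbours overlapped too.

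**Figure D1:**
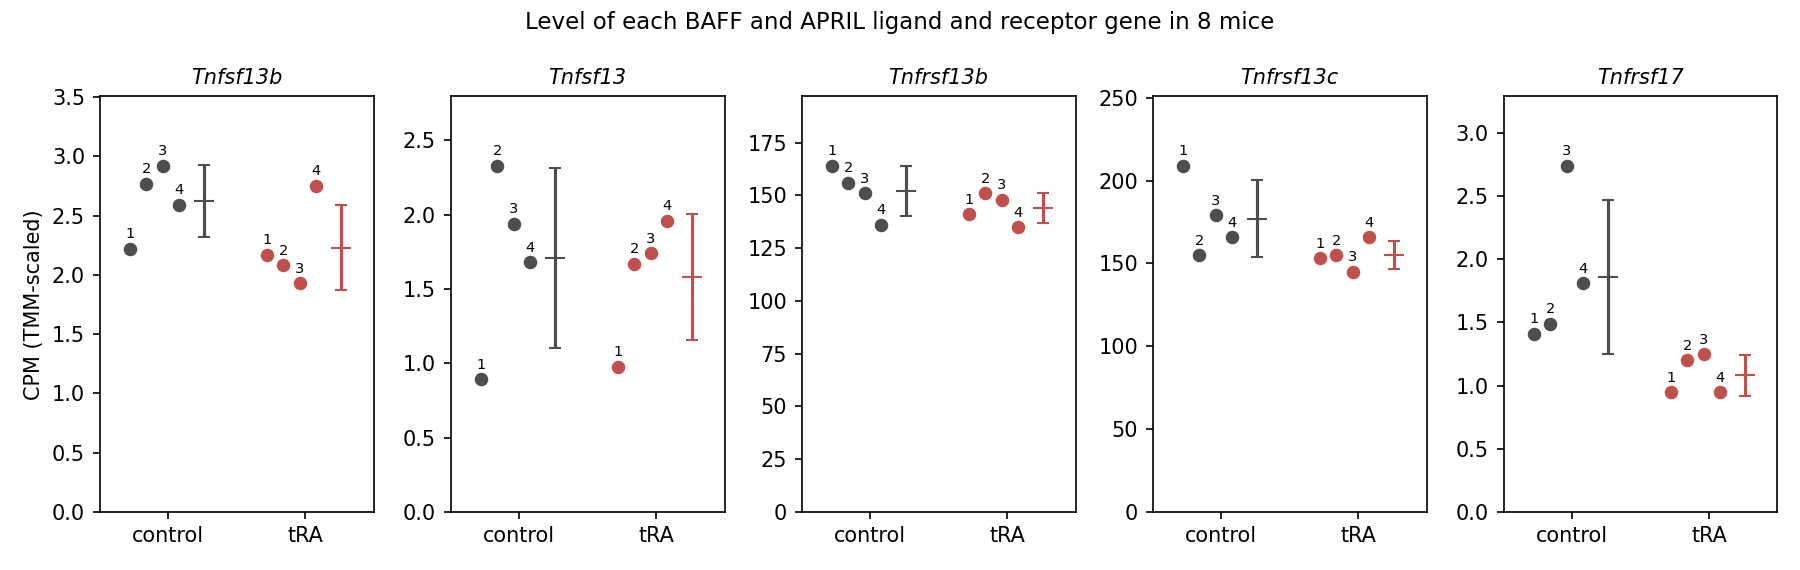
Level of the 5 genes in CPM (TMM-scaled, linear axes that start at 0, each gene on its own scale) in each control mouse (grey) and each tRA mouse (red), with replicate numbers beside the points and the mean ± SD of each group (n = 4) at the right of its points. For Tnfrsf17 the tRA mice lie between 0.947 and 1.25 CPM and the control mice between 1.41 and 2.74, whereas the groups overlap for the other genes.

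In the comparison of tRA with control, 0 of the 5 members had a Benjamini-Hochberg FDR under 0.1 by the edgeR quasi-likelihood test, and 0% of all 16484 genes tested did. DESeq2 called 27 genes at the same threshold, which is 0.0906% of the 29805 genes to which it gave a p, and 0 of them were members. DESeq2 gave an FDR to only 13625 genes, so the share among genes that could be called is higher. Of its 27 genes, 6 are in the gene lists used here, namely Camp, Ngp, Ltf and Lcn2 of neutrophil precursors and Jun and Egr1 of the immediate early genes. At an unadjusted p under 0.05, edgeR's quasi-likelihood test gave 1070 genes, or 6.49% of those tested, and 585 of these, 3.55% of those tested, were lower with tRA. This count depended on single mice, as leaving out tRA replicate 1 gave 2105 and leaving out tRA replicate 4 gave 657. In the latter case 3 genes had an FDR under 0.1. Among the members, 1 of 5 passed an unadjusted p under 0.05, Tnfrsf17, and it was lower with tRA. For the same gene and for no other member, every tRA mouse was below every control mouse. Over all genes tested, 269 genes were separated in this way with tRA lower, or 1.63%, and 584 genes, or 3.54%, were separated in either direction. All 5 members had a negative log2 fold change, with a median of -0.17 for the ligands and -0.20 for the receptors, where the median of all genes tested was 0.0014 and 8194 of the 16484 genes were negative. Both medians of the members depended on single mice. Tnfrsf13c, the middle receptor, had -0.11 without control replicate 1. Of the ligands, Tnfsf13 had -0.32 without control replicate 1 and 0.081 without control replicate 2.

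Of the ligands, Tnfsf13b (ENSMUSG00000031497) lies on the forward strand of GRCm38 at chr8:10006467-10039072. It encodes BAFF, which is made as a membrane protein and cut free by a furin-type protease. Its level was 2.22, 2.77, 2.92 and 2.59 CPM in control replicates 1 to 4 and 2.17, 2.08, 1.93 and 2.75 CPM in tRA replicates 1 to 4. Of the tRA mice, replicates 1, 2 and 3 were below all control mice and replicate 4 lay among them, so the groups overlapped. The log2 fold change was -0.23 with a standard error of 0.178 (Benjamini-Hochberg FDR 0.816 by the edgeR quasi-likelihood test), and the exact permutation test of the mean log2 CPM gave p = 0.114 (two-sided, n = 4 per group). It rested on 66 to 101 counts per mouse, and without tRA replicate 4 the log2 fold change was -0.35.

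Tnfsf13 (ENSMUSG00000089669), the gene of APRIL, a secreted ligand that binds heparan sulfate chains as well as its receptors, lies on the reverse strand at chr11:69682846-69685784. Its level was 0.893, 2.33, 1.94 and 1.68 CPM in control replicates 1 to 4 and 0.977, 1.67, 1.74 and 1.96 CPM in tRA replicates 1 to 4. Replicate 1 of each group was low, at 33 and 32 counts, and the remaining mice of the groups overlapped, with control replicate 2 above every tRA mouse. The log2 fold change of -0.11 was smaller than its standard error of 0.309 (Benjamini-Hochberg FDR 0.964 by the edgeR quasi-likelihood test; exact permutation p = 0.8, two-sided, n = 4 per group). Its direction depended on single mice, since leaving out control replicate 2 gave 0.081, tRA replicate 1 0.067 and control replicate 1 -0.32.

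The exons of Tnfsf13 overlap those of other genes. Tnfsfm13, a gene model on the same strand at chr11:69682577-69696098 that joins the TWEAK gene Tnfsf12 with Tnfsf13, covers 60% of the exon bases of Tnfsf13, and the antisense gene Tnfsf13os covers 13.5% of them. Whether the counting used the strand, and whether it assigned reads in these stretches to one gene, to several or to none, is not given in the sources used here. The joined gene had 0.554 ± 0.44 CPM in control mice and 0.454 ± 0.0261 in tRA mice (SD, n = 4), from 8 to 41 counts per mouse. Its control mean rested on control replicate 3, at 1.18 CPM, and was 0.344 without it, below the tRA mean. Tnfsf13os had 0.746 ± 0.126 and 0.757 ± 0.205 CPM (SD, n = 4). Tnfsf12 itself, whose product TWEAK acts on another receptor, had 2.09 ± 0.45 and 1.77 ± 0.18 CPM (SD, n = 4), a log2 fold change of -0.24 (Benjamini-Hochberg FDR 0.833 by the edgeR quasi-likelihood test; -0.10 without control replicate 2). None of these neighbours passed an unadjusted p under 0.05. The genes Gm44789 and Gm12269, which lie within Tnfsf13b and Tnfrsf13b on the opposite strand, share 0 exon bases with them and had at most 1 count in a library.

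Of the receptors, Tnfrsf13c (ENSMUSG00000068105) lies on the reverse strand at chr15:82221743-82224369. It encodes BAFF-R, which binds BAFF alone and recruits TRAF3. Its level was 209, 155, 179 and 166 CPM in control replicates 1 to 4 and 153, 155, 145 and 166 CPM in tRA replicates 1 to 4. Control replicates 1 and 3 were above all tRA mice, control replicate 4 was level with the highest of them and control replicate 2 lay within their range. The log2 fold change was -0.20 with a standard error of 0.0917 (Benjamini-Hochberg FDR 0.764 by the edgeR quasi-likelihood test), and the exact permutation test gave p = 0.114 (two-sided, n = 4 per group). Without control replicate 1 the log2 fold change was -0.11. Each value rested on at least 4933 counts, and for control replicate 1 the 95% exact Poisson interval was 205 to 214 CPM.

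Tnfrsf13b (ENSMUSG00000010142) lies on the forward strand at chr11:61126755-61149372. Its product TACI binds both ligands and is known for class switching and for restraint of B cell numbers. Its level was 164, 156, 151 and 136 CPM in control replicates 1 to 4 and 141, 151, 148 and 135 CPM in tRA replicates 1 to 4. The groups overlapped, with replicate 4 lowest in both. The log2 fold change was -0.077 with a standard error of 0.0721 (Benjamini-Hochberg FDR 0.852 by the edgeR quasi-likelihood test; exact permutation p = 0.286, two-sided, n = 4 per group). Leaving out control replicate 1 gave -0.036, tRA replicate 4 -0.048 and control replicate 4 -0.13.

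Tnfrsf17 (ENSMUSG00000022496) lies on the forward strand at chr16:11313812-11320074. Its product BCMA binds APRIL more tightly than BAFF and serves the survival of long-lived plasma cells. Its level was 1.41, 1.49, 2.74 and 1.81 CPM in control replicates 1 to 4 and 0.947, 1.2, 1.25 and 0.947 CPM in tRA replicates 1 to 4. All 4 tRA mice were below all 4 control mice, and control replicate 3 stood well above the rest. The log2 fold change was -0.78 with a standard error of 0.256, a level with tRA that was 0.583 times that of control. Its unadjusted p was 0.0116 and its Benjamini-Hochberg FDR 0.757 by the edgeR quasi-likelihood test, which places it at rank 234 among all genes tested. By DESeq2 the FDR was 0.375, within a range from 0.347 to 0.999 over the alternatives. The exact permutation test gave p = 0.0286 (two-sided, n = 4 per group), the smallest that 4 mice against 4 allow. Without control replicate 3 the log2 fold change was -0.54.

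The depth behind Tnfrsf17 was low, from 31 to 95 counts per mouse. The lowest control mouse, with 52 counts, had a 95% exact Poisson interval from 1.05 to 1.85 CPM, and the highest tRA mouse, with 46 counts, had one from 0.913 to 1.66 CPM, so these neighbours could not be told apart at this depth. The intervals cover counting error only.

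The balance among the receptors was also taken within each mouse, from levels per kb. Tnfrsf17 made up 1.07, 1.38, 2.34 and 1.69% of the summed receptor level in control replicates 1 to 4 and 0.925, 1.13, 1.23 and 0.895% in tRA replicates 1 to 4. On this scale the groups overlapped, and control replicate 1, which had the highest Tnfrsf13c level, came below tRA replicates 2 and 3. The ratio of Tnfrsf13c to Tnfrsf13b per kb was 1.76, 1.38, 1.64 and 1.7 in control replicates 1 to 4 and 1.5, 1.43, 1.36 and 1.71 in tRA replicates 1 to 4. BAFF-R transcripts exceeded TACI transcripts in all 8 mice, and the groups overlapped.

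**Figure D2:**
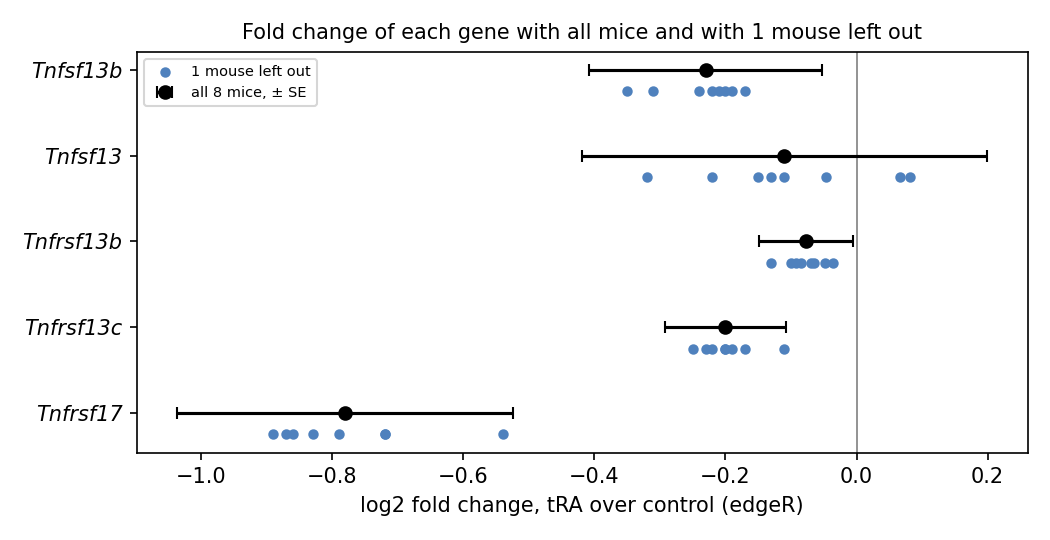
Log2 fold change of tRA over control for each of the 5 genes, with its standard error, from edgeR with all 8 mice (black), and the same value with each mouse left out in turn (blue). The values for Tnfrsf17 lie between -0.89 and -0.54, and those for Tnfsf13 lie on both sides of 0, from -0.32 to 0.081.

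In bulk RNA, fewer cells of a type and less RNA per cell cannot be told apart, so each receptor was also set against markers of the cells that carry it. For each mouse, the mean log2 CPM of 12 B cell genes was subtracted from that of Tnfrsf13c and of Tnfrsf13b, and the mean log2 CPM of 10 plasma cell genes from that of Tnfrsf17, giving 3 comparisons. The relative level of Tnfrsf13b was -2.05, -2.01, -2.04 and -2.05 in control replicates 1 to 4 and -2.16, -2.08, -2.08 and -2.18 in tRA replicates 1 to 4. Here the control mice lay within a narrow band and every tRA mouse was below it, although the difference was small, -0.092 on the log2 scale (exact permutation p = 0.0286, two-sided, n = 4 per group). With a reduced list of 4 B cell genes the difference was -0.11 and the exact permutation p was 0.0857, and with each mouse left out it stayed between -0.11 and -0.073.

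For Tnfrsf13c the level relative to B cell genes was -1.70, -2.02, -1.79 and -1.76 in control replicates 1 to 4 and -2.05, -2.03, -2.11 and -1.88 in tRA replicates 1 to 4. Control replicate 2 lay among the tRA mice. The difference was -0.20 (exact permutation p = 0.0571, two-sided, n = 4 per group).

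The level of Tnfrsf17 relative to plasma cell genes was -5.35, -5.37, -4.45 and -5.20 in control replicates 1 to 4 and -5.80, -5.70, -5.50 and -5.82 in tRA replicates 1 to 4. All tRA mice were below all control mice, with control replicate 3 high, as for Tnfrsf17 alone. The subtracted mean was 5.90, 6.01, 5.94 and 6.10 in control replicates 1 to 4 and 5.81, 6.03, 5.89 and 5.83 in tRA replicates 1 to 4. It moved little between mice, so the relative level largely repeats the separation of Tnfrsf17 itself. Of the 10 genes subtracted, 6 had a negative and 4 a positive log2 fold change, from -0.46 for Jchain to 0.22 for Slamf7. The relative level can thus depend on the genes chosen, and a level relative to Jchain alone was not tested. The difference in relative level to the full list was -0.61 (exact permutation p = 0.0286, two-sided, n = 4 per group) and was -0.40 without control replicate 3. With 3 mice against 4 the smallest exact p is 0.0571, so no comparison that leaves out a mouse can pass 0.05.

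The B cell genes themselves showed no common direction. Of 12 tested, 7 had a positive and 5 a negative log2 fold change, 0 had an unadjusted p under 0.05 by edgeR's quasi-likelihood test, and the median was 0.025, or -0.023 without control replicate 4. The most abundant over all 8 mice was Ighd, the constant gene of surface IgD, at 1391 ± 106 and 1549 ± 124 CPM (SD, n = 4), next to Cd79a at 1396 ± 110 (SD, n = 4) in control mice. The largest values in each direction were 0.20 for Ms4a1, which encodes CD20, and -0.15 for Blk, a Src family kinase, and that of Ms4a1 was 0.10 without control replicate 4 and 0.32 without control replicate 1. Among 6 genes of marginal zone B cells the median was -0.047 (-0.011 without control replicate 4), and Mzb1, an endoplasmic reticulum chaperone that plasma cells also use for antibody secretion, was the single gene of that list with an unadjusted p under 0.05, with 84.7 ± 7.84 CPM in control and 68.1 ± 4.47 in tRA mice (SD, n = 4) and a log2 fold change of -0.31 (Benjamini-Hochberg FDR 0.757 by the edgeR quasi-likelihood test). Of 4 genes of immature or transitional B cells, 3 were negative with a median of -0.21, which was -0.029 without control replicate 1 and -0.35 without control replicate 4. Among them Rag1, which encodes a recombinase of antigen receptor genes, had separate groups at 1.03 ± 0.416 and 0.48 ± 0.195 CPM (SD, n = 4), from 9 to 61 counts per mouse, and a log2 fold change of -1.11 (unadjusted p = 0.012, Benjamini-Hochberg FDR 0.757 by the edgeR quasi-likelihood test).

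Of the 10 plasma cell genes, 6 had a negative and 4 a positive log2 fold change with a median of -0.065 (-0.12 to -0.042 with each mouse left out), and 2 of the 6 had an unadjusted p under 0.05. Their summed level was 1321, 1294, 1294 and 1512 CPM in control replicates 1 to 4 and 1170, 1352, 1094 and 1079 CPM in tRA replicates 1 to 4. Replicates 1, 3 and 4 of the tRA group were thus below all control mice and tRA replicate 2 was above 3 of them. The most abundant gene was Jchain, which encodes the chain that joins IgM and IgA into polymers, with 574, 537, 604 and 722 CPM in control replicates 1 to 4 and 367, 541, 428 and 436 CPM in tRA replicates 1 to 4. It had a log2 fold change of -0.46 (Benjamini-Hochberg FDR 0.757 by the edgeR quasi-likelihood test). The other gene of the list with an unadjusted p under 0.05 was Derl3, a gene of endoplasmic reticulum protein degradation, at -0.39 (-0.23 without control replicate 4). Xbp1, Prdm1 and Irf4, the transcription factors of the plasma cell program, had 0.02, 0.11 and 0.0093. With each mouse left out these went from -0.024 to 0.07, 0.0033 to 0.20 and -0.23 to 0.18. Slamf7 had the highest value, 0.22, which was 0.13 without tRA replicate 3, 0.14 without control replicate 1 or 3, and 0.35 without control replicate 2 or tRA replicate 1. None of the 10 genes was at 0 in any library. The part that plasma cell number has in the Tnfrsf17 values was not tested beyond the relative level given above.

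Across the 8 mice, 14 relations between a member and the mean log2 CPM of a marker list were computed, with p-values from exact permutation tests and Benjamini-Hochberg adjustment over the 14. For values centred on group means, mice were exchanged within their group only, in 576 ways. For Tnfrsf17 and the plasma cell genes, Pearson's r was 0.53 (exact permutation p = 0.181, adjusted 0.381) and Spearman's rho was 0.67 (exact permutation p = 0.0831, adjusted 0.233). Without the 2 mice farthest from the median of the plasma cell genes r was 0.29, and with values centred on their group means it was 0.22. Tnfrsf13b and the B cell genes gave r = 0.77 (exact permutation p = 0.0232, adjusted 0.108) and rho = 0.60 (exact permutation p = 0.132, adjusted 0.302). That r was 0.42 without control replicates 1 and 4, so the relation over all mice rests partly on these, while the centred values gave 0.91 (exact permutation p = 0.00868 within groups, adjusted 0.0405). For Tnfrsf13c and the B cell genes r was 0.36 and rho was -0.10 (exact permutation p = 0.334 and 0.84, adjusted 0.468 and 0.905), and r was -0.66 without control replicates 1 and 4 and 0.54 when centred. The relations of Tnfrsf13c and Tnfrsf13b with plasma cell genes and of Tnfrsf17 with B cell genes had r between -0.26 and 0.054 and rho between -0.38 and 0.33, with exact permutation p of at least 0.504 for r and 0.36 for rho and adjusted values of at least 0.642 and 0.504. Without the 2 farthest mice r was -0.25 for Tnfrsf13c and 0.49 for Tnfrsf13b with plasma cell genes and -0.22 for Tnfrsf17 with B cell genes, and when centred it was -0.49, -0.21 and -0.27.

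The ligands were set against 4 lists of myeloid cells. Tnfsf13b and 8 genes of mature neutrophils gave r = 0.87 (exact permutation p = 0.00265, adjusted 0.0222) and rho = 0.86 (exact permutation p = 0.0107, adjusted 0.13). Without control replicate 2 and tRA replicate 3, the mice farthest from the median of the neutrophil genes, r was 0.84, and with values centred on group means it was 0.86 (exact permutation p = 0.026 within groups, adjusted 0.0911). For genes of neutrophil precursors r was 0.71 (exact permutation p = 0.0521, adjusted 0.182; rho = 0.81, exact permutation p = 0.0218, adjusted 0.13), 0.72 without tRA replicates 1 and 2, and 0.51 when centred. With monocyte and macrophage genes r was 0.43, and with dendritic cell genes 0.14 (exact permutation p = 0.3 and 0.739, adjusted 0.468 and 0.862), and rho was 0.38 and -0.048 (exact permutation p = 0.36 and 0.935, adjusted 0.504 and 0.935). Without the 2 farthest mice of each list these r were 0.11 and -0.29, and when centred they were 0.32 and -0.044.

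Tnfsf13 and 11 monocyte and macrophage genes gave r = 0.87 (exact permutation p = 0.00317, adjusted 0.0222) and rho = 0.79 (exact permutation p = 0.0279, adjusted 0.13). It was 0.81 without control replicate 2 and tRA replicate 1, the mice farthest from the median of these genes, and 0.89 when centred on group means (exact permutation p = 0.00694 within groups, adjusted 0.0405). For dendritic cell genes r was 0.62, for neutrophil precursors 0.51 and for mature neutrophils 0.41 (exact permutation p = 0.105, 0.191 and 0.305, adjusted 0.294, 0.381 and 0.468), with rho of 0.40, 0.57 and 0.74 (exact permutation p = 0.327, 0.151 and 0.0458, adjusted 0.504, 0.302 and 0.16). The centred value for neutrophil precursors was 0.83 (exact permutation p = 0.00174 within groups, the smallest possible, adjusted 0.0243), but the uncentred r was 0.23 without tRA replicates 1 and 2, the mice farthest from the median of these genes. Without the 2 farthest mice of its list, r was 0.61 for dendritic cell genes and 0.67 for mature neutrophils, and the centred values were 0.63 and 0.42. Whether the r of one list differed from that of another was not tested.

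**Figure D3:**
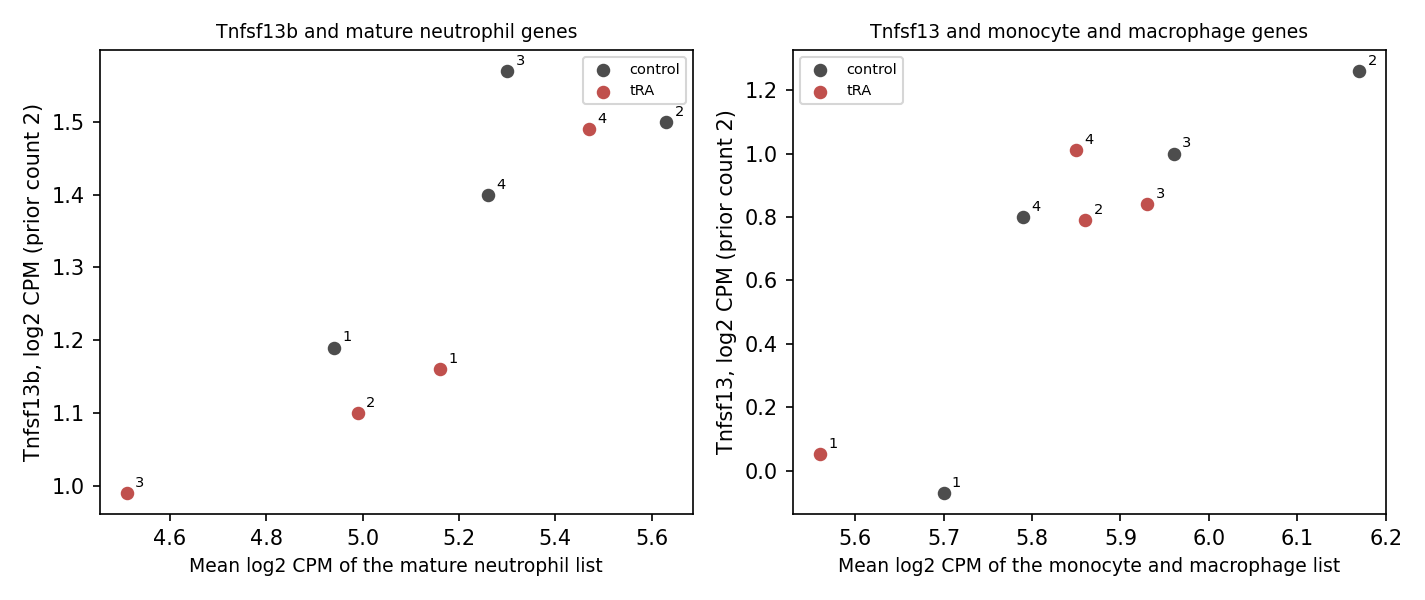
Left, log2 CPM of Tnfsf13b (prior count 2) against the mean log2 CPM of 8 mature neutrophil genes, and right, log2 CPM of Tnfsf13 against the mean log2 CPM of 11 monocyte and macrophage genes, 1 point for each control mouse (grey) or tRA mouse (red), with replicate numbers. Both relations have a Pearson's r of 0.87 over 8 mice, and replicate 1 of both groups is low for Tnfsf13.

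The mature neutrophil genes summed to 555, 921, 724 and 708 CPM in control replicates 1 to 4 and 657, 597, 470 and 838 CPM in tRA replicates 1 to 4, with Csf3r, the receptor of granulocyte colony-stimulating factor, the most abundant over all 8 mice at 237 ± 83.1 and 282 ± 60.4 CPM (SD, n = 4), although S100a9 was higher in control mice at 283 ± 37.9 (SD, n = 4). The groups overlapped. Of these genes 5 of 8 were negative with a median of -0.27 (-0.45 without tRA replicate 4 and -0.11 without tRA replicate 3), and the 3 with an unadjusted p under 0.05 were Ly6g, S100a8 and S100a9. The precursor genes summed to 556, 703, 742 and 637 CPM in control replicates 1 to 4 and 253, 317, 347 and 494 CPM in tRA replicates 1 to 4, so that all tRA mice were below all control mice. All 10 were negative, 9 with an unadjusted p under 0.05, with a median of -0.87, and the most abundant, the granule gene Ngp, went from 325 ± 44 to 171 ± 50.9 CPM (SD, n = 4). Camp, a gene of this list that encodes the antimicrobial peptide cathelicidin, had the lowest FDR of all genes tested, 0.135 after Benjamini-Hochberg adjustment in the edgeR quasi-likelihood test. No gene of either neutrophil list was at 0 in any library. The part of these cells in the Tnfsf13b values was not tested beyond the correlations.

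The monocyte and macrophage genes summed to 962, 1519, 1385 and 1099 CPM in control replicates 1 to 4 and 1069, 1280, 1381 and 1365 CPM in tRA replicates 1 to 4. Replicate 1 was lowest in both groups, as for Tnfsf13. Their median log2 fold change was -0.043, with 7 of 11 negative, and leaving out tRA replicate 1 gave 0.071 and leaving out tRA replicate 3 gave -0.19. The most abundant was the lysozyme gene Lyz2 at 587 ± 178 and 644 ± 62.6 CPM (SD, n = 4). Only Cd300e, a receptor of patrolling monocytes, had an unadjusted p under 0.05, with a log2 fold change of -0.52 (Benjamini-Hochberg FDR 0.757 by the edgeR quasi-likelihood test). Dendritic cell genes had a median of -0.09 (-0.26 to -0.041 with each mouse left out), with 7 of 9 negative, and 0 with an unadjusted p under 0.05 or an FDR under 0.1 by edgeR's quasi-likelihood test. Of 8 stromal genes, 4 passed the filter on low counts, and the most abundant, Pdgfrb, had 2.64 ± 0.71 and 2.25 ± 0.271 CPM (SD, n = 4). The others, among them the chemokine genes Ccl19 and Ccl21a, had at most 18 counts in a library.

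Genes whose level over the 8 mice was most like that of each member were sought among 10483 genes with a mean of at least 5 CPM. For Tnfsf13b they were S100a9 (r = 0.941), the annexin gene Anxa1 (r = 0.927) and Naip5, a sensor of flagellin (r = 0.921), of which S100a9 is also in the mature neutrophil list. For Tnfsf13 they included Sh2d1b1 (r = 0.966) and the keratin gene Krt80 (r = 0.953). Those of Tnfrsf17 were the annexin gene Anxa3 (r = 0.972), Klhdc8b (r = 0.971) and the aldehyde dehydrogenase gene Aldh3b1 (r = 0.959). All of them had an unadjusted p under 0.05 and a lower mean with tRA. This follows from the search, since Tnfrsf17 had separate groups and a gene so like it shares its direction. The genes most like Tnfrsf13b were Uap1l1 (r = 0.976), Slc10a3 (r = 0.972) and the lipid phosphatase gene Plpp3 (r = 0.907), and those most like Tnfrsf13c were Tamm41 (r = 0.944), Ruvbl2 (r = 0.928) and Lpxn (r = 0.913). These values are the top of a search through many genes and serve as a description. Between the members, r over the 8 mice ranged from -0.44 for Tnfsf13 with Tnfrsf13c to 0.53 for Tnfsf13b with Tnfsf13.

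Downstream of the receptors, TRAF2, TRAF3 and the cellular IAP proteins hold the kinase NIK in check until BAFF-R is engaged, after which p100, the product of Nfkb2, is processed and pairs with RelB. Of 13 genes of this signalling step, 7 were positive and 6 negative, 0 had an unadjusted p under 0.05 or an FDR under 0.1 by edgeR's quasi-likelihood test, and the median log2 fold change was 0.0091, on either side of 0 with each mouse left out (-0.034 to 0.042). DESeq2 called 0 of the 13. Birc3, an IAP gene, was the most abundant at 243 ± 6.2 and 252 ± 5.15 CPM (SD, n = 4). The highest value was 0.11, for Traf6, which had 0.04 without control replicate 3, 0.071 without tRA replicate 4 and 0.17 without control replicate 1. The lowest was -0.16 (standard error 0.0777), for Relb, with 103, 93.8, 96.4 and 95.5 CPM in control replicates 1 to 4 and 99.7, 84.5, 79.6 and 82.9 CPM in tRA replicates 1 to 4, where tRA replicate 1 lay among the control mice. Nfkb2 was the gene of this list with separate groups, at 214 ± 15.4 and 198 ± 2.34 CPM (SD, n = 4) and a log2 fold change of -0.11 (-0.063 without control replicate 1), and it was singled out after its values were seen. The NIK gene Map3k14 had 0.092 (0.053 without tRA replicate 1) and Traf3 had 0.054 (-0.032 without control replicate 3 and 0.13 without control replicate 1).

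Of 9 genes for processing, shedding and binding of the ligands and receptors, 6 were positive and 3 negative with a median of 0.0062 (-0.006 to 0.024 with each mouse left out), and 0 had an unadjusted p under 0.05. The protease genes were Furin, whose product cuts both ligands, at 0.10 (0.059 without control replicate 1 and 0.17 without control replicate 2), Adam10, whose product sheds TACI and BAFF-R, at 0.18 (0.10 without control replicate 3), and Adam17, the most abundant at 147 ± 5.87 and 147 ± 4.02 CPM (SD, n = 4), at 0.0056 (-0.029 to 0.024 with each mouse left out). Of gamma-secretase, the protease that sheds BCMA from the cell surface, the subunit gene Ncstn had 0.092, Aph1a had -0.032 (-0.058 to 0.016) and Psenen had -0.17. Sdc1, the syndecan that marks plasma cells and carries the heparan sulfate to which APRIL binds, had 16.7, 17, 17.2 and 16.4 CPM in control replicates 1 to 4 and 13.7, 15, 15.5 and 15.5 CPM in tRA replicates 1 to 4. Its groups did not overlap, and it had a log2 fold change of -0.17 (Benjamini-Hochberg FDR 0.765 by the edgeR quasi-likelihood test). This gene stands in the plasma cell list too.

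Genes known to respond to BAFF in B cells, or to carry its survival signal, numbered 11, of which 9 were negative and 2 positive, with 0 at an unadjusted p under 0.05 and a median of -0.03. Mcl1, which B cells need to live, was the most abundant over all 8 mice at 857 ± 91.8 and 839 ± 124 CPM (SD, n = 4), although Fcer2a, the CD23 gene of follicular B cells, was higher in tRA mice at 872 ± 67.6 (SD, n = 4). Fcer2a had the highest log2 fold change, 0.15, and Bcl2a1d, one of the near-identical copies of the survival gene A1 between which reads may be split, the lowest, -0.38 with a standard error of 0.273. The latter was -0.19 without tRA replicate 4 and -0.58 without control replicate 2, and Fcer2a had 0.23 without control replicate 2. For Cr2, the CD21 gene, which BAFF maintains, the value was -0.023, and for Bcl2 it was -0.03, both of them on either side of 0 with each mouse left out (-0.088 to 0.038 and -0.074 to 0.003). The median of the list was -0.10 without tRA replicate 1.

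Among the other ligands and receptors of the TNF family, 23 of 24 genes passed the filter on low counts, 11 positive and 12 negative, with a median of -0.0012 (-0.071 to 0.07 with each mouse left out). The gene left out was Cd70, with at most 1 count in a library. Lta, the lymphotoxin alpha gene, was the one gene of this list with an unadjusted p under 0.05 and the one with separate groups, at 34.8 ± 2.4 CPM in control and 28.6 ± 2.77 in tRA mice (SD, n = 4), a log2 fold change of -0.28 (Benjamini-Hochberg FDR 0.757 by the edgeR quasi-likelihood test), and it was singled out after its values were seen. Ltb, whose product joins that of Lta on the cell surface, was the most abundant at 472 ± 67.4 and 426 ± 37.2 CPM (SD, n = 4). Tnfrsf14, the receptor HVEM, had the highest value, 0.37 (0.23 without tRA replicate 3), and Tnfsf9, the ligand of 4-1BB, the lowest, -0.46. The CD40 pathway, which acts on B cells beside BAFF, had -0.034 for Cd40 (-0.081 to -0.0035 with each mouse left out) and 0.23 for its ligand Cd40lg (0.15 without tRA replicate 1).

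BAFF is known as an interferon-induced gene in myeloid cells. Of 16 interferon-stimulated genes, 11 were negative and 5 positive with a median of -0.11. The sign of this median depended on 1 mouse, since it was 0.062 without tRA replicate 2, which had the lowest mean log2 CPM of these genes, 3.93, where the other mice had 4.53 to 4.90, and it was -0.28 without tRA replicate 1. Bst2, which encodes tetherin, was the single one with an unadjusted p under 0.05, at 34.3 ± 3.09 and 27.4 ± 2.18 CPM (SD, n = 4) with a log2 fold change of -0.32 (Benjamini-Hochberg FDR 0.757 by the edgeR quasi-likelihood test). Stat2 was the most abundant at 154 ± 8.26 and 162 ± 12.2 CPM (SD, n = 4). The highest value was 0.18 for Rsad2, which ranged from -0.074 without tRA replicate 1 to 0.41 without tRA replicate 2. Of 10 genes that respond to retinoic acid, 8 passed the filter, 4 positive and 4 negative, with a median of -0.049 (-0.092 to -0.0052 with each mouse left out), whose sign depended on the filter, as genes with at least 10 counts in every sample gave 0.065. Ccr9, a gut-homing receptor that retinoic acid induces in lymphocytes, was the one with an unadjusted p under 0.05, with 14.3, 16.9, 16.2 and 20 CPM in control replicates 1 to 4 and 16.3, 22.3, 26.2 and 27.3 CPM in tRA replicates 1 to 4, where tRA replicate 1 lay among the control mice, and a log2 fold change of 0.45 (Benjamini-Hochberg FDR 0.757 by the edgeR quasi-likelihood test).

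Immediate early genes respond to handling of cells within minutes. All 8 had a negative log2 fold change, 3 of them with an unadjusted p under 0.05, and the median of -0.52 depended on single mice, as leaving out tRA replicate 1 gave -0.87 and leaving out tRA replicate 3 gave -0.30. They summed to 16162, 15272, 14388 and 13100 CPM in control replicates 1 to 4 and 15338, 11847, 5502 and 6972 CPM in tRA replicates 1 to 4, with tRA replicates 3 and 4 far below the rest and tRA replicate 1 within the control range. The most abundant over all 8 mice was Fos, at 3184 ± 216 CPM in control and 2216 ± 1148 in tRA mice (SD, n = 4), although Fosb was higher in control mice at 3319 ± 522 (SD, n = 4). Their part in the member values was not tested. The T cell genes had a median of 0.12 with 7 of 9 positive (0.064 to 0.19 with each mouse left out). The median was -0.032 for NK cell genes (-0.12 to 0.071), 0.44 for erythroid genes (-0.14 without tRA replicate 3 and 0.89 without control replicate 3) and -0.37 for platelet genes (-0.61 to -0.067). Each of these lists had 0 genes at an unadjusted p under 0.05 or an FDR under 0.1 by edgeR's quasi-likelihood test.

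Retinoic acid receptors bind DNA at pairs of a half-site with the letters AGGTCA or AGTTCA, or their variants GGGTCA and also GGTTCA. Interferon acts through an element whose core is GAAA, any 2 bases and again GAAA. Half-sites and core were searched on both strands in the 250 bases before each start of a member in the RefSeq promoter table of GRCm38.p6, a search chosen after the expression values had been seen. All 5 members matched an entry, with 6 windows in all, since Tnfsf13b has 2 starts whose windows share 84 bases. RefSeq starts can differ from those of the gene annotation used above, and 230 bases of the Tnfsf13 window and 166 of the window of the downstream Tnfsf13b start lie inside the gene as placed there. A half-site stood in 4 of the 6 windows and in 38.6% of all 32817 promoter windows of this length, and the interferon core in 2 of the 6 and in 2.97% of all. The windows are shown for Tnfsf13b, where half-sites lie closest together, and for the 3 receptors, with the half-sites and the interferon core in capitals, 5′ to 3′ on the strand of the gene. They are chr8:10006217-10006466 (forward strand) for the upstream start of Tnfsf13b, chr15:82224381-82224630 (reverse strand) for Tnfrsf13c, chr11:61126505-61126754 (forward strand) for Tnfrsf13b and chr16:11313559-11313808 (forward strand) for Tnfrsf17.
Tnfsf13b: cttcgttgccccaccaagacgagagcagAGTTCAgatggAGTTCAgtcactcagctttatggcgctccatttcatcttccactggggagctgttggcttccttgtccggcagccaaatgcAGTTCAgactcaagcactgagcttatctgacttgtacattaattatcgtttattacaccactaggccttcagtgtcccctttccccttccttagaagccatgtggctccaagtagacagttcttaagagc
Tnfrsf13c: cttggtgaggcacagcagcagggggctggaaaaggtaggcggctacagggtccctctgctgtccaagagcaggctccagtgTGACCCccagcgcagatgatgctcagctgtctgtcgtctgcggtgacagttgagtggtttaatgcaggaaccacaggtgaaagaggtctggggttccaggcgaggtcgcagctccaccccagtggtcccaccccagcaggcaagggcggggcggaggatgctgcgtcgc
Tnfrsf13b: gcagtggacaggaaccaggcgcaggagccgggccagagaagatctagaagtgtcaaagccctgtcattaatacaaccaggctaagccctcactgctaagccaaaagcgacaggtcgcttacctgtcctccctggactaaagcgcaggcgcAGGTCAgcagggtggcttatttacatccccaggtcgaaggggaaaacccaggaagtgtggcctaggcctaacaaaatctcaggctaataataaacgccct
Tnfrsf17: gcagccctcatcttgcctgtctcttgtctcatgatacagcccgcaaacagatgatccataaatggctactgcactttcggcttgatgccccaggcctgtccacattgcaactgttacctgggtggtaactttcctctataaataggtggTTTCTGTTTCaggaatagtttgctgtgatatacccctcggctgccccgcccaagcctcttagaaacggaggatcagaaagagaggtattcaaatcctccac

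The Tnfsf13b window held AGTTCA 222, 211 and 130 bases before the start. The first 2 form a direct repeat with 5 bases between the half-sites, an arrangement found in 29 of the 32817 windows, or 0.0884%, which overlaps the single half-sites by its making. Direct repeats with a spacing of 1 or 2 bases stood in 0.165% and 0.174% of all windows and in 0 of the 6 member windows. Tnfrsf13c had TGACCC, the reverse complement of GGGTCA, 169 bases before the start, and Tnfrsf13b had AGGTCA 100 bases before it. The Tnfrsf17 window held no half-site and had the interferon core on the reverse strand, as TTTCTGTTTC, 101 bases before the start. In the window of the downstream start of Tnfsf13b, a half-site stood 117 bases and an interferon core 16 bases before the start, and the Tnfsf13 window held neither. A match describes the letters in the window and not the binding of a factor.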

How the data were processed

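Total splenocytes of 4 tRA mice and 4 control mice were studied by RNA sequencing, with TruSeq libraries sequenced on 1 lane. The table that the authors deposited holds counts of reads on genes, which were not normalized. The submitters' processing notes name STAR 2.5.2b, featureCounts 1.5.1 and DESeq2 1.26.0 with the build GRCm38, while the methods of the study name Tophat2 and HTSeq, and which of these made the counts is not stated. The strand setting of the counting is not given in the sources used here. A deposited comparison of the groups, with means, fold changes and p-values, was not used, and 0 value columns of the count table were left out.

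Groups and replicate numbers follow the sample titles. Counts were tested with edgeR 4.0.16 (R 4.3.3): filterByExpr with a minimum count of 10, TMM normalization and the two-sided quasi-likelihood test, with Benjamini-Hochberg adjustment over all 16484 genes tested and an FDR threshold of 0.1. The filter removes genes with few reads, and TMM assumes that most genes do not differ. CPM are counts scaled by the TMM library size, and log2 CPM used a prior count of 2. Positions, exon lengths and symbols are those of GENCODE M21, in which 51633 of 51826 identifiers have an entry. Single values were compared by exact permutation of the mice, within groups for values centred on group means, with Python 3.11.15 and scipy 1.17.1, and figures were drawn with matplotlib 3.10.9. Alternatives were DESeq2 1.42.0, limma-voom (limma 3.58.1), RLE normalization, library size alone, other filters, protein-coding genes only, the replicate number as a block, and each mouse left out.

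The members and the gene lists were chosen with earlier results of these data known. Genes named were the members, genes that overlap them, in each list the gene most abundant over all 8 mice and those with the highest and lowest log2 fold change, and the 3 genes most correlated with each member. Further genes of a list are given for their role, their level, an unadjusted p under 0.05 or groups that do not overlap, as examples. Values of some genes that this rule or these lists name are not reported here.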

Additional observations from a re-analysis of the deposited data

Results flagged for a closer look

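The mean log2 CPM over the B cell survival genes set 1 mouse apart within its group. In the tRA mice it was 6.21, 6.19, 6.21 and 6.08 for replicates 1 to 4, so that tRA replicate 4 was low, with a gap to its nearest neighbour of 0.842 of the range of the group, above Dixon's critical value at the 95% level. The control mice had 6.27, 6.19, 6.33 and 6.28. The summed level of the same genes was instead highest in tRA replicate 4, with 3026, 3140, 3011 and 3178 CPM in tRA replicates 1 to 4, while the less abundant Bcl2a1d had 8.28, 8.85, 7.75 and 4.09 CPM. This was 1 of 56 groups of 4 values examined in this way, where chance alone gives about 1 in 20, or 2.8 of 56. None of the 5 ligand and receptor genes had such a mouse in either group.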

How the results depend on the processing

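Of the 5 genes, 0 had an FDR under 0.1 under any of the 16 alternatives of the fit. The count over all genes, 0 by edgeR's quasi-likelihood test with 1070 at an unadjusted p under 0.05, was 27 by DESeq2, 6 when genes with low counts were kept, 1 by limma-voom and between 0 and 3 with a mouse left out. The log2 fold changes of Tnfsf13b, Tnfrsf13b, Tnfrsf13c and Tnfrsf17 were negative under all 16, from -0.35 to -0.17, -0.13 to -0.036, -0.25 to -0.11 and -0.89 to -0.54. That of Tnfsf13 was negative under 14, and with a mouse left out it went from -0.32 to 0.081, with 0.067 without tRA replicate 1, and the cause was not tested. Rsad2 had -0.074 without tRA replicate 1 and -0.064 without tRA replicate 3, in a range up to 0.41. Of 320 list medians under alternatives, 2 moved by more than the spread between mice: B cell survival genes ranged from -0.10 to -0.02 with a mouse left out, and other TNF family genes from -0.071 to 0.07. With a mouse left out, the median of 9 of the 20 lists changed sign: erythroid (-0.14 to 0.89), stromal (-0.51 to 0.21), interferon-stimulated (-0.28 to 0.062), monocyte and macrophage (-0.19 to 0.071), NK cell (-0.12 to 0.071), B cell (-0.023 to 0.066), other TNF family, receptor-proximal (-0.034 to 0.042) and processing genes (-0.006 to 0.024). Immediate early genes ranged from -0.87 to -0.30. The median of retinoid response genes was 0.065 with at least 10 counts required in every sample, and that of other TNF family genes was 0.025 with library size alone, 0.0018 without the filter, 0.036 by limma-voom and 0.031 with the block. The receptor levels relative to markers kept their direction. With a mouse left out they ranged from -0.11 to -0.073 for Tnfrsf13b and from -0.70 to -0.40 for Tnfrsf17, where fewer mice alone raise the smallest exact permutation p to 0.0571, and with fewer marker genes Tnfrsf13b had -0.11. Centred on group means, r was 0.91 for Tnfrsf13b with B cell genes, 0.86 for Tnfsf13b with mature neutrophil genes (adjusted exact permutation p = 0.0911 within groups), -0.21 for Tnfrsf13b with plasma cell genes, -0.044 for Tnfsf13b with dendritic cell genes and 0.83 for Tnfsf13 with neutrophil precursor genes. Per kb of the longest transcript, the mean level was 0.509 CPM for Tnfsf13b and 57.8 for Tnfrsf13b, as this length is shorter than that of all exons.

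Mice of the same replicate number had correlations of their deviations from the group means of 0.157, -0.023, -0.014 and 0.259, and not every mouse correlated best with its own number, so the numbers were not taken to pair the mice. With the replicate number as a block, 0 genes were called, 1200 had an unadjusted p under 0.05, and the log2 fold change of Tnfrsf17 was -0.75. The block changed no call.

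With 4 mice per group and 31 to 101 counts per mouse for Tnfrsf17 and the ligands, small differences in these genes could not be detected. How reads were counted where exons of Tnfsf13 overlap those of other genes is not given. The labels give the same dose of tRA to all mice, so the grouping rests on the titles and on the text of the study.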
